A study of Mus musculus with 10 samples.

Results

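Immediate early genes are switched on by existing transcription factors within minutes of a stimulus, without new protein synthesis. The 10 genes described here were taken by symbol, Fos, Fosb, Jun, Junb, Egr1, Egr2, Ier2, Dusp1, Nr4a1 and Klf4, from 23924 usable gene symbols in each of 2 mouse RNA sequencing tables, and all 10 were found in both. The choice used no measured value as a threshold, but it was made with earlier results of these data known. The study's title concerns dormancy of pancreatic tumour cells without their driver and names autocrine IGF1 as a signal in it. Pancreatic tumours of a KrasT and a MycT model were transplanted orthotopically into athymic nude mice, a host strain that lacks a thymus and therefore most T cells, and total RNA came from whole frozen tumour tissue.

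The KrasT table held 3 untreated tumours (0 days of doxycycline) and 3 tumours from mice given doxycycline for 14 days, at 100 ug/ml in drinking water with 2.5% sucrose. The MycT table held 2 untreated and 2 doxycycline tumours under the same schedule. Each tumour carries its own animal number, so replicates are separate animals. The labels do not say how the KrasT and MycT tumours were engineered, in which cells a driver is expressed, what doxycycline does to it, whether tumours of a model share a cell line, or whether untreated mice drank sucrose. One untreated MycT library has an animal number that matches no label and is called the unnumbered library below. The other is untreated replicate 2.

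In resting cells these genes are nearly silent, and growth factors, cytokines, stress and tissue handling can induce them. The ERK kinase pathway acts through the ternary complex factors and serum response factor at CArG boxes, and cyclic AMP and calcium act through CREB and ATF proteins. The induced proteins, among them the Fos and Jun families that pair as the AP-1 factor, go on to regulate later genes, and Dusp1 shuts the kinases off again.

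Promoter sequences were searched for the letters these factors recognise. The RefSeq table used here (GRCm38.p6) gave 12 start-site windows for 8 of the 10 genes, with no entry for Egr1 and Ier2, and the 250 bases before the start were searched on both strands. The letters TGACG, the core that CREB and ATF proteins recognise, were found in 7 of 8 genes and 9 of 12 windows. Of these 9 windows, 3 are overlapping Egr2 windows that hold the same sites. Of 32851 mouse promoter windows of the same length, 17.8% held TGACG. The exception was Jun, whose window held TGACATCA, known as a site for Jun and ATF2 pairs, found in 2.93% of all windows. Dusp1 held the full TGACGTCA, which contains TGACG and occurs in 1.55% of all windows. Within the 250 bases searched, Egr2 was the one of the 8 genes with an exact CArG box, which 1.47% of all windows held. The box was in 4 Egr2 windows, 3 of which overlap and hold the same site. The AP-1 letters TGANTCA were found in 0 of the 12, against 6.75%. Sequence further from the start was not searched, so a gene without a match here may hold the site there. These motifs were chosen after the sequences had been seen, and a match is a description of the letters, not of binding. The following windows are a selection of those with a match, and capitals mark the matches. The Klf4 and Fosb windows, which also hold TGACG, and the other Egr2 windows are not shown.
Jun, chr4:95052223-95052472, minus strand: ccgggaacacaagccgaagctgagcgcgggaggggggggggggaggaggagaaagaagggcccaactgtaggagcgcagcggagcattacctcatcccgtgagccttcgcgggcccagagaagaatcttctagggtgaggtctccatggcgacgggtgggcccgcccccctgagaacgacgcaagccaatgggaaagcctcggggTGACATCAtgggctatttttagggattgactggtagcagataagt
Junb, chr8:84978749-84978998, minus strand: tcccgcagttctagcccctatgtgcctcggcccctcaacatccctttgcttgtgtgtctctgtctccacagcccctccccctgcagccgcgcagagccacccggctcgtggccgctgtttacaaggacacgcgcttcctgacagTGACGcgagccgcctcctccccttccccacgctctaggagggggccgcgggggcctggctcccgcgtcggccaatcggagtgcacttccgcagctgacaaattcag
Fos, chr12:85473640-85473889, plus strand: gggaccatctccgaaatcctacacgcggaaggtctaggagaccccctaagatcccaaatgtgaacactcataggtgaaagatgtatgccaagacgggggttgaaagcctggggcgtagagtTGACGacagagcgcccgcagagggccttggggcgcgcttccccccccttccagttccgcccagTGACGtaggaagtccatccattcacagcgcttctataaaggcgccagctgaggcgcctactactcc
Egr2, chr10:67537619-67537868, plus strand: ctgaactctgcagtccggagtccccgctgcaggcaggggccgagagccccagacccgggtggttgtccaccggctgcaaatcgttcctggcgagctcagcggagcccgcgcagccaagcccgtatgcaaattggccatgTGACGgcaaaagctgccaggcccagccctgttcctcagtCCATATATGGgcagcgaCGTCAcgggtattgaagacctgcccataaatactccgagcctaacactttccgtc
Dusp1, chr17:26508473-26508722, minus strand: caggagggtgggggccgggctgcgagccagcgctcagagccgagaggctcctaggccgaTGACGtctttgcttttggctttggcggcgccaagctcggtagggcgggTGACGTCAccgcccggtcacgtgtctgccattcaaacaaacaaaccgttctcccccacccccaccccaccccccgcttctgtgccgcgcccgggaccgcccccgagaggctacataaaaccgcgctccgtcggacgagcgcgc
Nr4a1, chr15:101266596-101266845, plus strand: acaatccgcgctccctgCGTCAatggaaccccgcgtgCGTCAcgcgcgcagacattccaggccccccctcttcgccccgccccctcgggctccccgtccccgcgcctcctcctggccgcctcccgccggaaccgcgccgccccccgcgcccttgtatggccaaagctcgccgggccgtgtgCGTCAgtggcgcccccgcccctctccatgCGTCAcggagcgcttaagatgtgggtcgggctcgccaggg

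Across the 10 libraries the samples differed in more than these genes. The deposited values are FPKM, fragment numbers adjusted for gene length and for library size. Their sum per library was 789672 to 1018968 in untreated and 513949 to 569272 in doxycycline KrasT tumours, and 1126800 and 1517332 against 557227 and 546008 in MycT. The share of summed FPKM in ribosomal protein genes was 27.7% to 35.04% in untreated and 16.0% to 26.0% in doxycycline KrasT tumours, and 47.0% and 49.6% against 21.8% and 22.2% in MycT tumours. The 45S ribosomal RNA precursor Rn45s stood at 17238 FPKM in doxycycline KrasT replicate 1 and at 20880 FPKM in doxycycline MycT replicate 2, and at 2231 FPKM or less in the other libraries. Untreated KrasT replicate 1 correlated with its fellow replicates at r = 0.823 and 0.839 across genes, and those correlated at r = 0.966 with each other. The depth in reads is unknown. In bulk tissue, fewer cells of a type and less RNA per cell cannot be told apart.

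**Figure D1:**
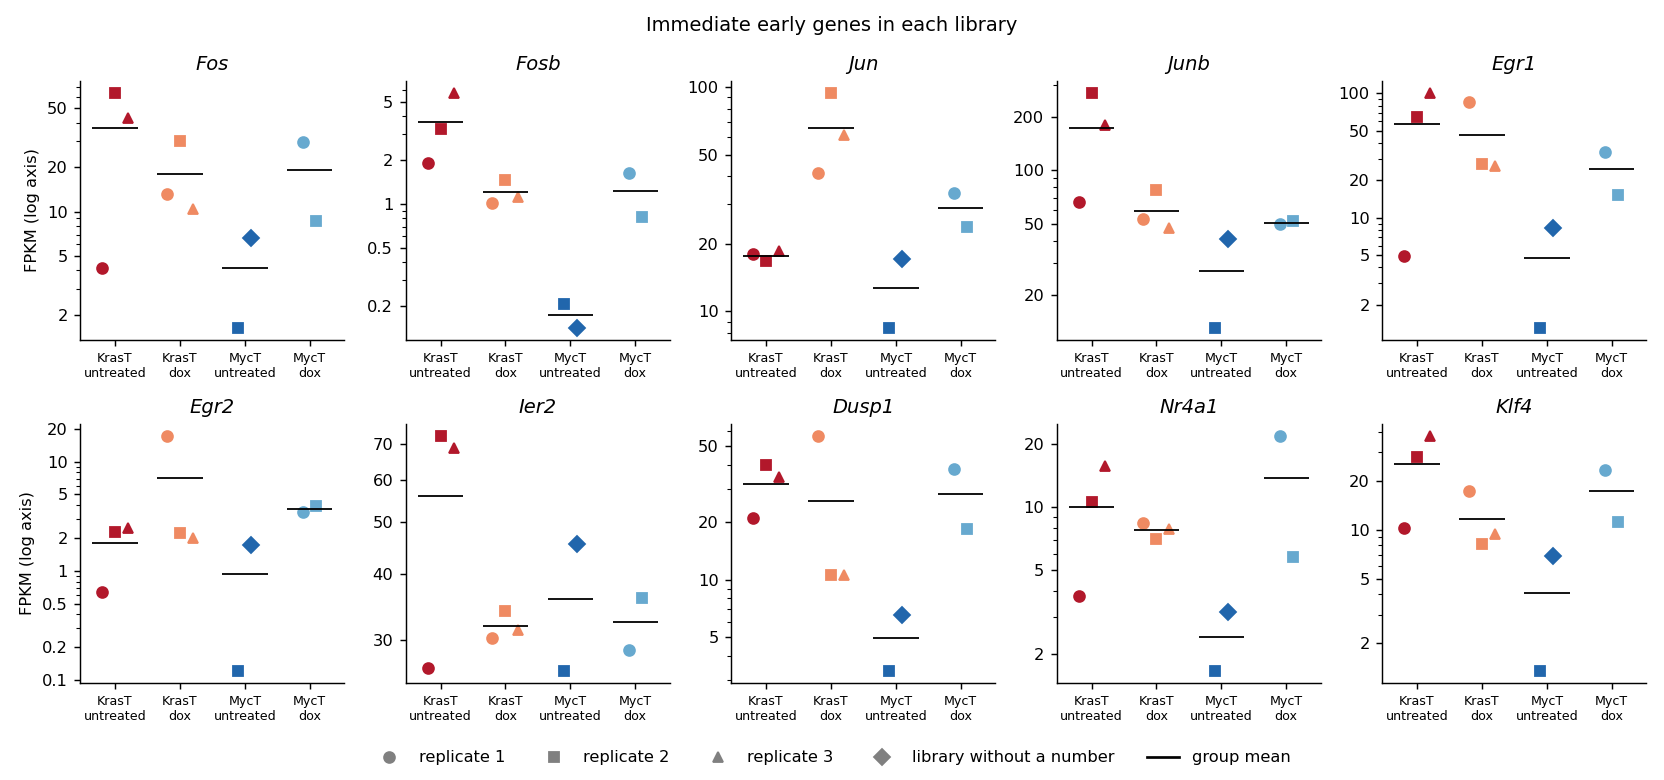
FPKM (log axis) of each immediate early gene in every library; points are libraries, shaped by replicate, and horizontal lines are group means. In KrasT, Jun is the gene whose doxycycline libraries (41.3 to 94.3 FPKM) all lie above the untreated ones (16.8 to 18.5), and in MycT all genes but Ier2 have both doxycycline libraries above both untreated ones.

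Among the 10 genes, Jun was the one that changed past the threshold with doxycycline in KrasT tumours. It encodes c-Jun, the AP-1 subunit that JNK kinases activate. Its level was 18.0, 16.8 and 18.5 FPKM in untreated replicates 1, 2 and 3 and 41.3, 94.3 and 61.2 FPKM in doxycycline replicates 1, 2 and 3. The untreated values lay close together and every doxycycline value was above them. The group means were 17.7 ± 0.900 and 65.6 ± 26.8 FPKM (SD, n = 3), and the log2 change was 1.75 ± 0.33 (SE; on log2(FPKM + 1), as all changes below; limma adjusted p = 0.0199). So 1 of 10 genes was called higher and 0 lower, in a table where 16.7% of 12696 tested genes were called, 8.46% higher and 8.25% lower. By sign, 3 of 10 changes were positive, as were 45.3% over all genes. Quantile normalization called 2 of the 10, Jun higher and Fosb lower, where it called 8.49% of all genes, and limma array weights, which weight each library by its fit, called 7, where they called 46.7%. The Jun call ended when any of 3 libraries was left out: its limma adjusted p was 0.0694 without untreated replicate 2, 0.0771 without untreated replicate 3 and 0.0915 without doxycycline replicate 3. Those 3 fits called 341, 113 and 120 of all 12696 genes, against 2121 with every library. Over all 6 fits that left out 1 library, the log2 change of Jun ran from 1.45 to 2.04.

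Junb encodes the AP-1 subunit often induced together with Jun, and in KrasT tumours its values ran the other way, without passing the threshold. Its level was 66.5, 272 and 179 FPKM in untreated KrasT replicates 1, 2 and 3 and 52.8, 76.9 and 47.1 FPKM in the doxycycline replicates. Untreated replicates 2 and 3 stood far above all other libraries, while untreated replicate 1 lay among the doxycycline values. The means were 172 ± 103 and 58.9 ± 15.8 FPKM (SD, n = 3), with a log2 change of -1.35 ± 0.52 (limma adjusted p = 0.121).

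The ratio of Jun to Junb FPKM within a library does not depend on how libraries are scaled. It was 0.270, 0.0616 and 0.1035 in untreated KrasT replicates and 0.782, 1.23 and 1.30 in doxycycline KrasT replicates. In MycT it was 0.651 in untreated replicate 2 and 0.416 in the unnumbered library, and 0.684 and 0.460 with doxycycline. The ratio thus separated the KrasT groups and not the MycT groups. It was chosen after the values had been seen and was not tested. Jun made up 15.2%, 4.455% and 6.85% of the summed FPKM of Jun, Junb and Jund in untreated KrasT replicates 1, 2 and 3, and 25.0%, 42.2% and 38.0% with doxycycline.

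The Fos proteins bind DNA as partners of the Jun proteins. Fos itself stood at 4.16, 63.8 and 43.3 FPKM in untreated KrasT replicates 1, 2 and 3 and at 13.2, 30.0 and 10.4 FPKM with doxycycline. Untreated replicate 1 was the lowest of all 6 libraries and the other untreated replicates were the highest, so the groups overlapped. The log2 change was -0.52 ± 0.95 (limma adjusted p = 0.737). Fosb, a close relative, was 1.92, 3.26 and 5.78 FPKM untreated and 1.02, 1.46 and 1.12 FPKM with doxycycline. These groups did not overlap, yet the log2 change of -0.9999 ± 0.35 missed the threshold (limma adjusted p = 0.0949). Jun and Fosb were thus the 2 of 10 genes with separate KrasT groups, 1 in each direction, where 39.8% of tested genes had separate groups, 16.8% with doxycycline higher and 23% with it lower.

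Fosl1, a further member of the Fos family, fell in KrasT tumours. It encodes the Fra-1 subunit, is known as an ERK target, and was 2.24, 22.6 and 9.73 FPKM in untreated KrasT replicates and 0.373, 0.0290 and 0.0290 FPKM with doxycycline. It fell by 3.05 on the log2 scale (limma adjusted p = 0.0297), and kept the call in 1 of 6 fits that left out 1 library, the one without untreated replicate 1. That fit called 4223 of 12696 genes, and the others called 113 to 1004. The limma adjusted p in these 6 fits ran from 0.00272 to 0.111. Fosl1 reached 1 FPKM in the untreated libraries alone, so it passed the filter on low values only through the group where it was high. Its share of the summed Fos, Fosb, Fosl1 and Fosl2 FPKM was 13.7%, 20.9% and 12.96% in untreated KrasT replicates and 0.865%, 0.0627% and 0.114% with doxycycline.

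**Figure D2:**
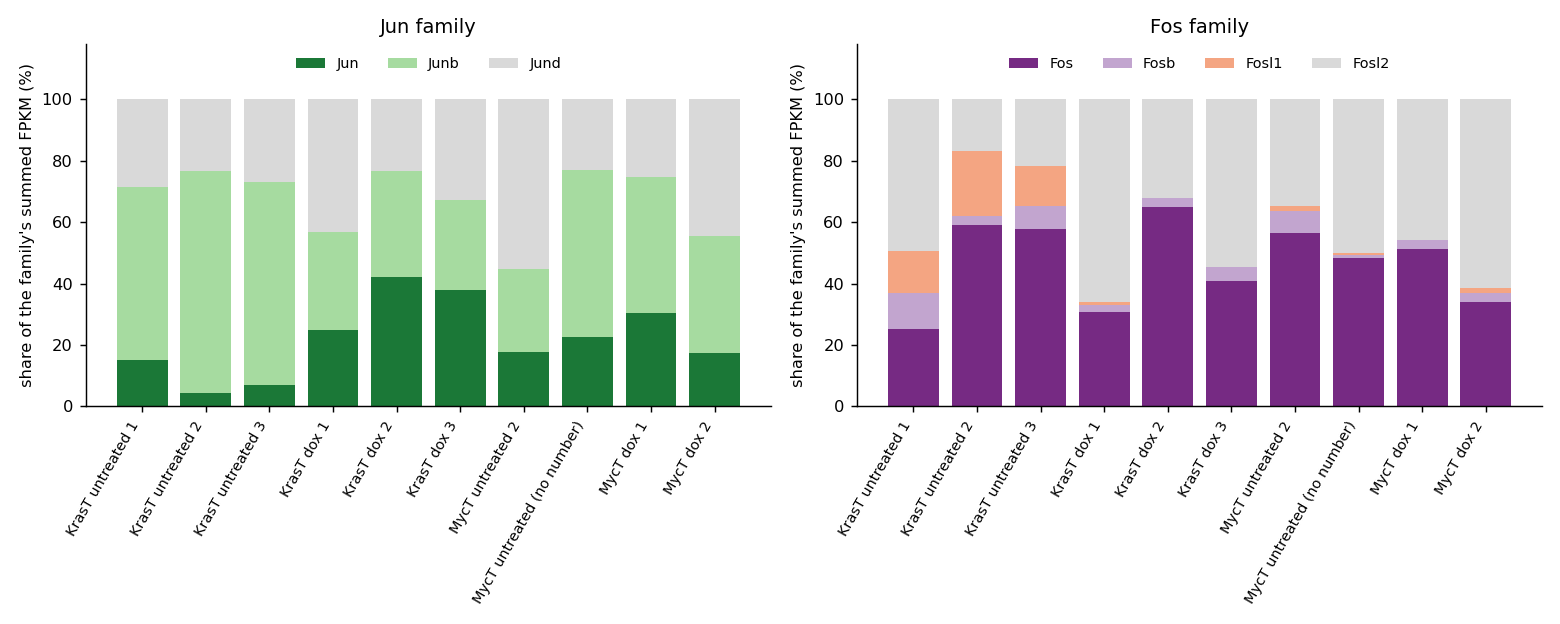
Share (percent) of each gene in the summed FPKM of the Fos family and of the Jun family, with 1 bar per library. In KrasT the Jun share is at most 15.2% in untreated and at least 25.0% in doxycycline libraries, and the Fosl1 share is at least 12.96% untreated and at most 0.865% with doxycycline.

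The zinc finger factors Egr1 and Egr2 are classical targets of serum response factor. Egr1 was 4.96, 64.1 and 101 FPKM in untreated KrasT replicates and 84.8, 27.2 and 26.3 FPKM with doxycycline. Each group held 1 library far from the other pair, low among the untreated and high among the doxycycline tumours. Its log2 change was 0.25 ± 1.07 (limma adjusted p = 0.896). Egr2 was 0.644, 2.28 and 2.49 FPKM untreated and 17.1, 2.23 and 1.99 FPKM with doxycycline. Its log2 change of 1.07 ± 0.73 (limma adjusted p = 0.346) came with 1 high library, doxycycline replicate 1, and the other doxycycline libraries lay within the untreated range. That library also had the highest summed macrophage markers of the KrasT tumours, 3579 FPKM against 792 and 1350 in doxycycline replicates 2 and 3, and the high Rn45s level given above. Its summed adipocyte markers were 3360 FPKM against 206 and 201 FPKM, its islet markers 7535 against 44.7 and 2545 FPKM and its fibroblast markers 9470 against 4154 and 4050 FPKM. Their part in the Egr2 value was not tested.

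Ier2 encodes a small nuclear protein of the immediate early response. It was 26.6, 72.5 and 68.7 FPKM in untreated KrasT replicates and 30.4, 34.1 and 31.3 FPKM with doxycycline. The doxycycline libraries agreed closely and lay between untreated replicate 1 and the other untreated replicates (log2 change -0.66 ± 0.40, limma adjusted p = 0.293). Dusp1, the phosphatase that switches off p38, JNK and ERK kinases, was 21.2, 39.8 and 34.5 FPKM untreated and 56.6, 10.6 and 10.6 FPKM with doxycycline. Here the doxycycline group itself was split, with replicate 1 the highest and replicates 2 and 3 the lowest of the model (log2 change -0.68 ± 0.65, limma adjusted p = 0.504).

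Nr4a1 encodes Nur77, an orphan nuclear receptor that is regulated mainly by its own transcription. It was 3.76, 10.6 and 15.7 FPKM in untreated KrasT replicates and 8.44, 7.09 and 7.84 FPKM with doxycycline (log2 change -0.15 ± 0.47, limma adjusted p = 0.853). Klf4, a Krüppel-like zinc finger factor of epithelial differentiation and a reprogramming factor, was 10.3, 28.1 and 37.9 FPKM untreated and 17.3, 8.22 and 9.48 FPKM with doxycycline (log2 change -0.95 ± 0.52, limma adjusted p = 0.243). Both genes again had untreated replicate 1 well below the other untreated replicates.

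**Figure D3:**
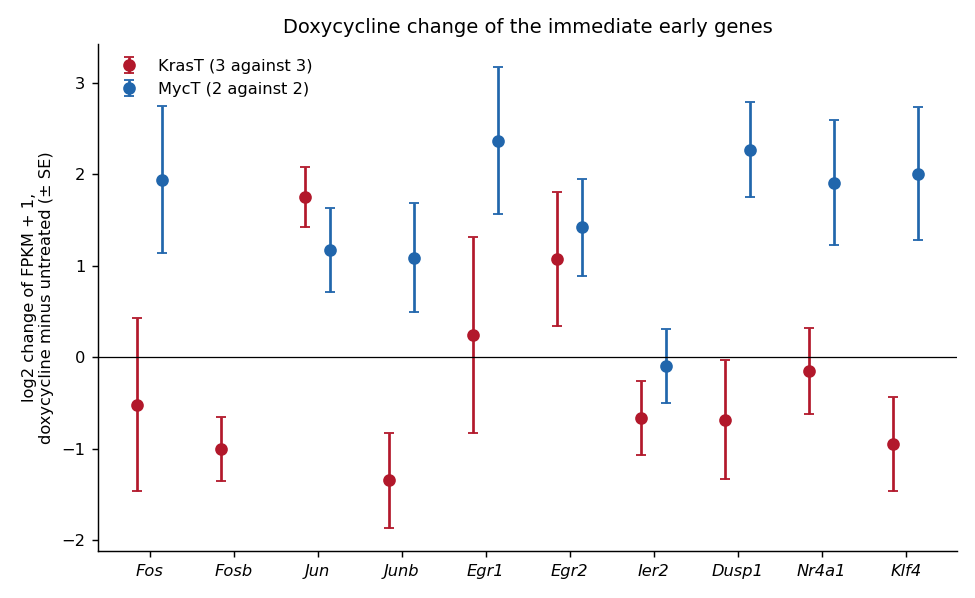
Doxycycline change (log2 of FPKM + 1) of each gene in KrasT and MycT from limma, with SE as bars. KrasT changes run from -1.35 (Junb) to 1.75 (Jun), the called one, and MycT changes from -0.10 (Ier2) to 2.37 (Egr1) with none called; Fosb has no MycT value because the filter on low FPKM left it out.

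One untreated KrasT tumour stood apart from the others of its group for most of these genes. Untreated replicate 1 was below both other untreated replicates for 9 of 10 genes, all but Jun, where 37.8% of tested genes had that order. The mean of replicates 2 and 3 was 16.7 times its value for Egr1, 12.9 times for Fos, 3.70 times for Egr2, 3.49 times for Nr4a1, 3.39 times for Junb and 3.20 times for Klf4, and between 1.75 and 2.65 times for Ier2, Fosb and Dusp1. For Jun it was 0.981 times. In the same library the summed ductal markers were lowest of the untreated group, 2756 FPKM against 19313 and 9697, and the summed fibroblast and macrophage markers were the highest, 874 and 847 FPKM. The part of this tissue makeup in the low values was not tested.

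That library was singled out after its low values for these same genes were seen, and leaving it out raises their untreated means. Without that library, limma called 6 of the 10 genes in KrasT, in a fit that called 33.3% of all genes. Fits that left out any other KrasT library called Jun alone or none of the genes, and 113 to 1004 of all 12696 genes. Without untreated replicate 1, Jun stayed higher at a log2 change of 1.76 (limma adjusted p = 0.0153), where 15.6% of genes were called higher. The 5 genes called lower, where 17.6% were, included 3 of the AP-1 subunits. Junb had a log2 change of -1.92 (limma adjusted p = 0.00863), Fos -1.64 (limma adjusted p = 0.0373) and Fosb -1.29 (limma adjusted p = 0.0199). The others were Klf4 at -1.47 (limma adjusted p = 0.0247) and Ier2 at -1.12 (limma adjusted p = 0.0106). Against untreated replicates 2 and 3 alone, the doxycycline libraries lay below both for 6 genes, where 35.5% of all genes did, above both for Jun, where 27.3% did, and overlapped for Egr1, Egr2 and Dusp1.

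**Figure D4:**
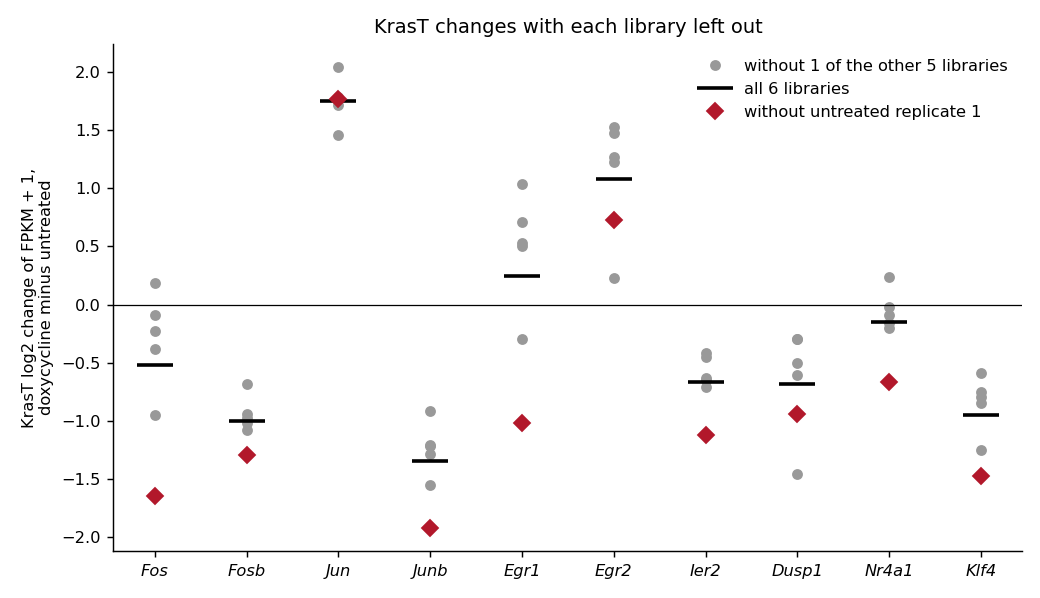
Log2 change of each gene in KrasT with all 6 libraries and with each library left out in turn. Leaving out untreated replicate 1 moves Fos from -0.52 to -1.64 and Egr1 from 0.25 to -1.01, while Jun stays between 1.45 and 2.04 in all 6 of these fits.

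In MycT tumours nearly all of these genes stood higher with doxycycline, and none passed the threshold. Ier2 was the exception. Both doxycycline libraries were above both untreated ones for 9 of 10 genes, against 31.9% of all tested genes. Of the 9 genes tested, 8 had a positive log2 change, as had 51.6% of all genes, and the median was 1.91, beside 0.04 over 12834 genes. Limma called 0 of the 9 genes, in a table of 2 against 2 libraries where it called 0.039% of genes, so that a missed threshold says little about a gene, and 5 of the 9 had an unadjusted p under 0.05, as had 33.4% of all genes. In the fit of all 10 libraries together, limma called 20.4% of all genes for MycT, and 8.11% of all genes higher. There 0 of the 9 were called and the smallest limma adjusted p was 0.0645, for Dusp1. Scaling every library to the same FPKM total called 8 of the 9 higher, all but Ier2, where 31.6% of all genes were called, 29.9% higher. That scaling moved the median of all genes by 1.04.

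Dusp1 had the smallest p of the 9 genes in MycT. It was 3.33 FPKM in untreated replicate 2 and 6.52 in the unnumbered library, and 38.1 and 18.4 FPKM in doxycycline replicates 1 and 2. The means were 4.93 ± 2.26 and 28.2 ± 13.9 FPKM (SD, n = 2), and the log2 change was 2.27 ± 0.52 (limma adjusted p = 0.0774). Egr1 had the largest log2 change of the 9, with levels of 1.31 and 8.24 against 34.0 and 15.3 FPKM (log2 change 2.37 ± 0.81, limma adjusted p = 0.124). Egr2 was 0.122 and 1.73 against 3.44 and 3.95 FPKM (log2 change 1.42 ± 0.53, limma adjusted p = 0.143). For all 3 genes, untreated replicate 2 was the lowest library.

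Klf4, Nr4a1 and Fos also had separate MycT groups, with untreated replicate 2 the lowest library. Klf4 was 1.35 and 6.84 FPKM untreated and 23.4 and 11.2 FPKM with doxycycline (log2 change 2.01 ± 0.72, limma adjusted p = 0.136). Nr4a1 was 1.66 and 3.16 against 21.9 and 5.81 FPKM (log2 change 1.91 ± 0.68, limma adjusted p = 0.135). Fos was 1.64 and 6.65 against 29.7 and 8.71 FPKM (log2 change 1.94 ± 0.80, limma adjusted p = 0.170). For these 3 genes doxycycline replicate 1 was well above replicate 2, and replicate 2 stood nearer to the unnumbered untreated library.

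Among the Jun genes, Jun was 8.46 and 17.1 FPKM in untreated MycT tumours and 33.9 and 23.9 FPKM with doxycycline (log2 change 1.17 ± 0.46, limma adjusted p = 0.157). Junb was 13.0035 and 41.2 against 49.5 and 51.9 FPKM (log2 change 1.09 ± 0.60, limma adjusted p = 0.268), with the unnumbered library close to the doxycycline level. Fosb was 0.207 and 0.142 against 1.64 and 0.816 FPKM. It reached 1 FPKM in a single MycT library and was left out of the test by the filter on low values. Ier2 was 26.3 and 45.5 FPKM untreated and 28.8 and 36.1 FPKM with doxycycline (log2 change -0.10 ± 0.40, limma adjusted p = 0.888), a change that was positive under each of the 3 other scalings. Untreated replicate 2 was the lowest of the 4 MycT libraries for 9 of 10 genes, all but Fosb, and doxycycline replicate 1 the highest for 7.

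The change in MycT minus that in KrasT was positive for 8 of 9 tested genes, against 49.7% of all genes, with a median of 2.12 beside -0.01 over 12073 genes. It was largest for Klf4 at 2.96 ± 0.94 (limma adjusted p = 0.138), Dusp1 at 2.95 ± 0.99 (limma adjusted p = 0.153), Fos at 2.46 ± 1.48 (limma adjusted p = 0.388) and Junb at 2.44 ± 0.87 (limma adjusted p = 0.171). The single negative value was that of Jun, -0.58 ± 0.57 (limma adjusted p = 0.606). Limma called 0 of 9 genes here, as it did 0.24% of all genes, and 4 of 9 had an unadjusted p under 0.05, as had 19.9% of all genes. Array weights called 3, Junb, Dusp1 and Klf4, where they called 12.2%. Without untreated KrasT replicate 1 limma called 3 of 9, where 12.6% of all genes were called: Fos at 3.59 (adjusted p = 0.0487), Junb at 3.01 (adjusted p = 0.0298) and Klf4 at 3.48 (adjusted p = 0.0337). Fits of the difference that left out any other KrasT library called none of the genes. Those fits called only 0 to 3 of all 12073 genes, so they say little about these genes. By sign alone, 5 of 9 genes were lower with doxycycline in KrasT and higher in MycT, as were 21% of all genes; Nr4a1 was positive in KrasT with median-ratio scaling, and Fos and Nr4a1 were with every library at the same FPKM total.

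**Figure D5:**
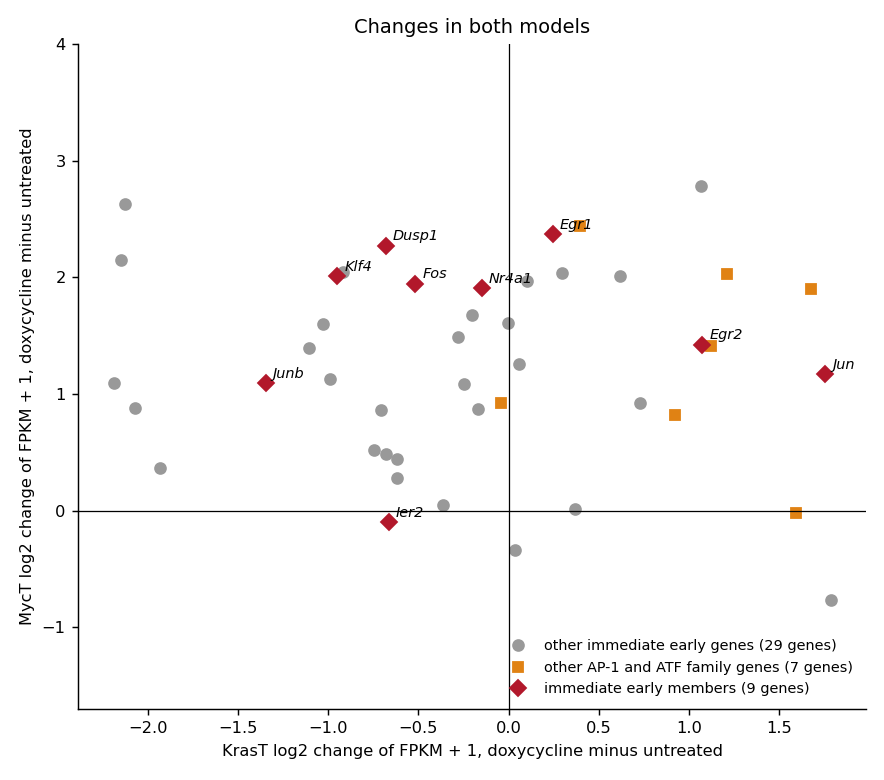
Doxycycline change (log2 of FPKM + 1) in KrasT on the x axis against that in MycT on the y axis; labelled points are the immediate early genes grey circles 29 other immediate early genes and orange squares 7 other AP-1 and ATF genes. Fos, Junb, Dusp1, Nr4a1 and Klf4 lie in the upper left quadrant (lower in KrasT, higher in MycT), with Jun at the right; Fos and Nr4a1 leave that quadrant when every library is scaled to the same FPKM total, Nr4a1 with median-ratio scaling too, and none of the differences between models passed the threshold for the labelled genes.

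Markers of cell types in the tissue were also compared. Over all genes, limma called 8.25% lower and 8.46% higher in KrasT, and 0.039% in either direction in MycT. The 10 ductal epithelium markers, among them keratins 8, 18 and 19, all had negative log2 changes in KrasT, with 2 called lower, and summed to 2756 to 19313 FPKM untreated and 340 to 2089 FPKM with doxycycline. In MycT 8 of the 10 had positive changes and 0 were called by limma; the sums were 523 and 1735 FPKM untreated and 2202 and 962 FPKM with doxycycline. Fibroblast markers went the same way in both models: 8 of 10 were called higher in KrasT, from 341 to 874 FPKM in sum to 4050 to 9470 FPKM, and in MycT all 10 were positive, from 39.8 to 471 FPKM in sum untreated to 1776 to 2514 FPKM with doxycycline, and limma called 0. Macrophage sums were 284 to 847 against 792 to 3579 FPKM in KrasT, with 3 of 10 called higher, and 483 to 851 against 1169 to 2530 FPKM in MycT. Endothelial sums were 22.3 to 45.9 against 84.0 to 176 FPKM in KrasT, with 7 of 9 called higher, and 8.36 to 42.6 against 68.6 to 127 FPKM in MycT. Without untreated KrasT replicate 1, 5 ductal markers were called lower and 8 fibroblast, 7 macrophage and 9 endothelial markers higher in KrasT. That fit called 17.6% of all genes lower and 15.6% higher. Without doxycycline replicate 1, the library with high Rn45s, limma called 0 ductal markers lower and 6, 0 and 4 of the others higher. That fit called 1004 of 12696 genes in either direction. None of these markers was at 0 in every library of a group, and their part in the values of the immediate early genes was not tested.

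Markers of tissue around a tumour were high in single libraries. Summed skeletal muscle markers were 6983 FPKM in doxycycline MycT replicate 1, the library highest for 7 of the 10 genes, and 9.44 FPKM or less in the other MycT libraries. In KrasT they were 5747 FPKM in doxycycline replicate 2, 309.6 and 66.7 FPKM in the other doxycycline libraries, 453 FPKM in untreated replicate 1 and 3.62 and 3.83 FPKM in the other untreated libraries. Summed acinar markers were 14704 FPKM in doxycycline KrasT replicate 3 and 304 FPKM or less in the other KrasT libraries, and 1671 FPKM in doxycycline MycT replicate 2 against 274 FPKM or less in the other MycT libraries. Islet and adipocyte sums were highest in doxycycline KrasT replicate 1, at 7535 and 3360 FPKM, and, among MycT libraries, in doxycycline replicate 2, at 695 and 1693 FPKM. Lep was at 0 in all untreated libraries of both models, and Plin1, Ins1, Sst and Ppy were at 0 in both untreated MycT libraries. The part of these tissues in the values of the immediate early genes was not tested.

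Levels also differed between untreated tumours of the 2 models, which come from separately made tables with no stated scaling between them. All untreated KrasT libraries were above both untreated MycT libraries for 5 genes, where 28.4% of all genes had that order. The ratio of mean FPKM was 21.0 for Fosb, 6.46 for Dusp1, 6.37 for Junb, 6.20 for Klf4 and 4.15 for Nr4a1. The groups overlapped for Fos, Jun, Egr1, Egr2 and Ier2, as did those of 54% of all genes. With doxycycline, Jun alone was higher in all KrasT than in both MycT libraries, by 2.27 times, where 25.4% of all genes were, and the other 9 genes overlapped, as did 68.4% of all genes.

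FPKM is a level per gene length, so genes can be ordered by it within a group. In untreated KrasT tumours the order of mean FPKM was Junb, Egr1, Ier2, Fos, Dusp1, Klf4, Jun, Nr4a1, Fosb and Egr2. With doxycycline Jun came first, followed by Junb, Egr1, Ier2, Dusp1, Fos, Klf4, Nr4a1, Egr2 and Fosb. In untreated MycT tumours the order was Ier2, Junb, Jun, Dusp1, Egr1, Fos, Klf4, Nr4a1, Egr2 and Fosb, and with doxycycline it differed only in Junb standing before Ier2. The ranges of neighbours in these orders mostly overlapped. This held for 8 of the 9 neighbouring pairs in untreated KrasT, doxycycline KrasT and untreated MycT tumours, and for 6 of 9 in doxycycline MycT tumours. Ranges over tumours do not compare genes within a library. There Junb was above Egr1 in every untreated KrasT library, while the order of Egr1 and Ier2 varied between those libraries. The pairs that did not overlap were Jun above Nr4a1 in untreated and Egr2 above Fosb in doxycycline KrasT tumours, Jun above Dusp1 in untreated MycT tumours, and Junb above Ier2, Nr4a1 above Egr2 and Egr2 above Fosb in doxycycline MycT tumours.

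Other AP-1 and ATF genes mostly had higher values with doxycycline in both models. Of 8 such genes tested in KrasT, 6 had positive changes, and limma called 2 higher, Batf3 (log2 change 1.67, adjusted p = 0.0280) and Batf2 (1.21, adjusted p = 0.0184), both partners of Jun proteins in immune cells, and 1 lower, Fosl1. The median was 1.02, beside -0.10 over all genes. Over all genes, limma called 8.46% higher and 8.25% lower. Batf3 held its call in 1 and Batf2 in 2 of 6 fits that left out 1 library, which called 113 to 4223 of 12696 genes. Without the high Rn45s library Batf2 was the 1 gene of the list called, where 1004 of 12696 genes were called. Batf2 was 0.528 to 0.818 FPKM in untreated and 2.86 to 2.97 FPKM in doxycycline KrasT libraries. It thus passed the filter on low values only through the group where it was high. Batf3 was 0.253 to 1.46 against 3.05 to 6.36 FPKM and needed the doxycycline libraries to pass. In MycT 6 of 7 tested had positive changes and limma called 0, with Batf2 at 2.02 (adjusted p = 0.0753) and Jdp2 at 1.41 (adjusted p = 0.1004).

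The list of other immediate early genes had mostly negative changes in KrasT and mostly positive ones in MycT. Of 30 tested in KrasT, 21 had negative changes, the median change was -0.49 beside -0.10 over all genes, and limma called 5 lower and 1 higher, where 8.25% and 8.46% of all genes were called. Ptgs2, the inducible cyclooxygenase, fell by 2.19 (limma adjusted p = 0.0265) and Myc, the growth regulator, fell by 2.15 (limma adjusted p = 0.0236) on the log2 scale. The other 3, named after their values were seen, were Ier3, Klf6 and Maff, with log2 changes of -2.13, -2.07 and -1.93. Gadd45b, a stress-induced regulator of p38 and JNK signalling, was the one called higher (log2 change 1.78, limma adjusted p = 0.0182). Ptgs2 reached 1 FPKM in the untreated KrasT libraries alone, so it passed the filter on low values only through the group where it was high. The 6 fits that left out 1 library called 113 to 4223 of 12696 genes. In them the call held in 1 for Ptgs2 (limma adjusted p up to 0.106), in 2 for Myc (up to 0.1004) and in 3 for Gadd45b (up to 0.0924). Without untreated replicate 1, 11 were called lower and 2 higher, where 17.6% and 15.6% of all genes were. Without the high Rn45s library 2 were called lower and 1 higher, where 1004 of 12696 genes were called. In MycT 27 of 29 tested had positive changes, their median was 1.10, and limma called 0; Ier3 was at 2.62 (adjusted p = 0.0666) and Zfp36, an mRNA decay factor, at 2.04 (adjusted p = 0.0756). By sign, 20 of 29 were lower in KrasT and higher in MycT, as were 21% of all genes. The sources used here do not say whether the Myc values include transcripts of a transgene.

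With all libraries in the fit, genes that act upstream of the response were called at a share near that of all genes. Among 18 regulators of serum response factor, ternary complex factors and kinases in KrasT, limma called 0 higher and 2 lower, where 8.46% and 8.25% of all genes were, with a median of -0.15. Map2k1, which encodes the ERK kinase MEK1, fell by 2.00 (limma adjusted p = 0.0162) and Mapk8, which encodes JNK1, fell by 1.39 on the log2 scale (limma adjusted p = 0.0344). Map2k1 held its call in 3 of 6 fits that left out 1 library and Mapk8 in 1, where these fits called 113 to 4223 of 12696 genes. Without untreated replicate 1, 6 of the 18 were called lower, where 17.6% of all genes were. Without the high Rn45s library 1, Map2k1, was called lower, where 1004 of 12696 genes were called in either direction. In MycT limma called 0 of 17, with Elk3 at 2.40 (adjusted p = 0.0990) and Mkl1 at 1.10 (adjusted p = 0.119).

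Heat shock genes, many of which respond to cell stress, had mixed changes. In KrasT limma called 3 of 8 lower, where 8.25% of all genes were, Hspa8 (log2 change -1.599, adjusted p = 0.0311), Hsp90aa1 (-1.33, adjusted p = 0.0212) and, named after its value was seen, Dnajb1 (-1.05), and 1 higher, Hspb1 (1.02, adjusted p = 0.0456). The 6 fits that left out 1 library called 113 to 4223 of 12696 genes. In them the call held in 2 for Hspa8 (limma adjusted p up to 0.109), in 2 for Hsp90aa1 (up to 0.0971) and in 1 for Hspb1 (up to 0.138). Without the high Rn45s library, Hspa8 and Hsp90aa1 were called lower and 0 were called higher, where 1004 of 12696 genes were called. In MycT limma called 0 of 8, 5 of the 8 changes were positive and the median was 0.37, with Hspb1 at 2.13 (adjusted p = 0.102) and Hsp90aa1 at -2.16 (adjusted p = 0.0816). The summed level of the list, which its most abundant genes set, was 1891 to 2177 FPKM untreated and 583 to 1120 FPKM with doxycycline in KrasT, and 1536 to 1803 against 833 to 923 FPKM in MycT. Hspa8 alone was 1495 to 1843 against 345 to 799 FPKM in KrasT, and 994 to 1202 against 529 to 559 FPKM in MycT. The FPKM total per library was lower with doxycycline too, at 513949 to 569272 against 789672 to 1018968 in KrasT. In MycT it was 557227 and 546008 against 1126800 and 1517332. The sums of the list are not scaled to these totals.

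Genes with the most similar profiles were sought over all 10 libraries, by the root mean square difference of log2(FPKM + 1) after each gene's mean was taken off, among 8623 genes. The nearest to Jun were Zfp467 (0.391), Rin2 (0.438) and Txnip (0.457), and those to Junb were Ggta1 (0.294), Vasp (0.310) and Glrx (0.325). Fos had Parm1 at 0.317, well ahead of Slc52a3 (0.555) and Mgat3 (0.564), while Egr1 had none nearer than Efhd2 at 0.648. For Dusp1 they were Mfge8, Gpr137b and Ttyh2 (0.456 to 0.474), for Klf4 Atp2b1, Fat1 and Ptgfrn (0.298 to 0.366) and for Nr4a1 Clip1, Mfsd6 and Map3k5 (0.374 to 0.400). Low or flat profiles gave smaller distances, as for Ier2 with Ifitm2 (0.171), Fosb with Ptp4a2 (0.233) and Egr2 with Lipa (0.264). Of the 8 genes with a mean of at least 5 FPKM, all but Fosb and Egr2, none was among the 3 nearest of another of the 10: by rank the closest was Klf4, the fifth nearest to Dusp1 at 0.508. Jun and Junb were 1.35 apart, and Junb ranked 6036 among the genes nearest to Jun.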

How the data were processed

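RNA sequencing values came from 2 gene tables, KrasT (6 libraries) and MycT (4 libraries). The authors deposited FPKM; per the submitters' processing notes reads were handled by cutadapt and TopHat on mm9, and per the labels' protocols libraries were made with a TruSeq RNA kit. The program and annotation behind the FPKM, and any use of strand, are not stated in the labels or files used here, so overlapping or antisense genes cannot be told apart. Depth in reads is unknown. Steps between low values put relative depth at 0.756 to 1.19 (KrasT, untreated replicate 1 as 1) and 0.621 to 1 (MycT, untreated replicate 2 as 1). Columns were matched by animal number; 1 matched no label and is the unnumbered untreated MycT library. Of 23951 rows, 27 whose symbols had become dates were left out.

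Genes with at least 1 FPKM in at least 3 KrasT or 2 MycT libraries were tested on log2(FPKM + 1), pseudocount 1, by a two-sided moderated fit in limma 3.58.1 under R 4.3.3, with a mean-variance trend in eBayes. Calls are those with p under 0.05 after Benjamini-Hochberg adjustment over all genes kept. A fold on this scale understates the change of low genes. The difference between models is the interaction term of 1 fit of all 10 libraries. The smallest p an exact permutation test allows is 0.1 for the KrasT groups and 0.333 for the MycT groups. The steps were tested on simulated data. Plots used Python 3.11.15 and matplotlib 3.10.9.

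The 10 genes and all lists were chosen with earlier results of these data known. Named genes are the 10 genes, per list and model up to 2 called rises and 2 called falls of largest change or else the 2 of smallest p, and the 3 nearest profiles per gene among genes with a mean of at least 5 FPKM. Alternatives changed the pseudocount, filter, scaling, eBayes settings, library weights and fit, left out each library in turn and, added after seeing the data, left out libraries with Rn45s above 10000 FPKM. Promoter windows are RefSeq entries of GRCm38.p6, used only for sequence because the authors' build is mm9.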

Additional observations from a re-analysis of the deposited data

Results flagged for a closer look

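Fosb had separate groups in both models, in opposite order, and neither change passed the threshold. All 3 doxycycline KrasT libraries were below all 3 untreated ones, as for 23% of tested genes. Both doxycycline MycT libraries were above both untreated ones, as for 31.9% of tested genes. The share of genes with both orders was not counted. The filter on low FPKM kept Fosb out of the test of the difference. In limma fits without that filter, its log2 change in MycT was 0.90 ± 0.24 (SE, adjusted p = 0.146) and the change in MycT minus that in KrasT was 1.90 ± 0.50 (adjusted p = 0.115). Its untreated MycT values, 0.207 and 0.142 FPKM, were both under 1 FPKM, and the difference did not pass the threshold.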

How the results depend on the processing

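Among the 10 genes in KrasT, limma called 1 in the reported fit, 2 after quantile normalization (Jun and Fosb), 7 with array weights and 0 to 6 when 1 library was left out. Of all genes, the reported fit called 16.7%, quantile normalization 8.49% and the fits without 1 library 113 to 4223 of 12696. Array weights called Fos, Fosb, Junb, Ier2, Dusp1 and Klf4 lower beside Jun, in a fit that called 46.7% of all genes. In MycT 0 were called, where 0.039% of all genes were. After each library was scaled to the same FPKM total 8 were called higher, where 29.9% of all genes were. That scaling moved the median of all genes by 1.04 in MycT, 0.63 in KrasT and 0.42 in the difference. The median of the 9 genes tested in MycT then stood 1.89 above that of all genes, against 1.87 as reported. For the difference 0 were called, 3 with array weights (Junb, Dusp1 and Klf4) and 0 to 3 when 1 KrasT library was left out. Of all genes, 0.24% were called for the difference, 12.2% with array weights and 0 to 1522 of 12073 when 1 KrasT library was left out. The Jun call in KrasT held in all 10 settings that kept every library.

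Some directions turned. In KrasT these were Nr4a1 with median-ratio scaling (0.0925); Fos, Ier2 and Nr4a1 at the same total (0.15, 0.0225 and 0.49); Egr1 with array weights (-1.24), without untreated replicate 1 (-1.01) and without doxycycline replicate 1 (-0.30), which is also the fit without the high Rn45s library; Fos without untreated replicate 2 (0.18); and Nr4a1 without untreated replicate 3 (0.24). Over the fits that left out 1 library, Egr1 ran from -1.01 to 1.04, Fos from -1.64 to 0.18 and Nr4a1 from -0.66 to 0.24. In MycT Ier2 turned with median-ratio scaling (0.11), the same total (1.11), quantile normalization (0.27), without the unnumbered library (0.29) and without doxycycline replicate 1 (0.06), with a range of -0.48 to 0.29 when 1 library was left out. In the difference Egr2 turned without KrasT doxycycline replicate 2 (-0.05) or 3 (-0.10) and without MycT untreated replicate 2 (-0.30), with a range of -0.30 to 1.20. Apart from what each setting leaves out or rescales, the cause was not tested. No paired analysis was possible because every tumour comes from a different animal and no label links one to another.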
